A study of Rattus norvegicus with 16 samples.

Results

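The genes described here are 8 genes of cholesterol synthesis and its control, Hmgcs1, Idi1, Fdps, Fdft1, Sqle, Cyp51, Dhcr7 and Insig1. They were found by their gene symbol among the non-control spots of a single-colour rat gene expression array. They matched 9 of 30367 probes, and 8 of 22436 gene symbols on the array. None of the 8 is itself a gene of cholesterol uptake, and the uptake genes are described from a wider list of cholesterol genes. Whole hippocampus was taken at 24 h from adult male Sprague-Dawley rats. Naïve rats (3 arrays) were neither anesthetized nor handled, and Sham rats (2 arrays) underwent anesthesia and the preparation but not the injury itself. TBI rats (3 arrays) received a severe parasagittal fluid percussion injury, a pulse of fluid pressure on the dura. The drug groups received the same injury followed by PMI-006 at 250 mg/kg by gavage (TBI+PMI, 3 arrays), JM6 at 400 mg/kg by gavage (TBI+JM6, 3 arrays) or estradiol at 33 ug/kg (TBI+E33, 2 arrays). The series labels give a subcutaneous route for estradiol and the methods an intraperitoneal one. No vehicle is named for the TBI rats of this experiment, so drug and vehicle cannot be told apart in the comparisons with TBI. The methods describe 3 rats in each group, and 16 arrays were analysed here.

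Cholesterol is made from acetyl-CoA by the mevalonate pathway. The brain makes nearly all of its own cholesterol, because lipoproteins of the blood hardly cross the blood-brain barrier, and oligodendrocytes use much of it for myelin. The enzyme genes are controlled together by the transcription factor SREBP-2, which leaves the endoplasmic reticulum when sterols are low. Hmgcs1 makes HMG-CoA at the entry to the pathway, Idi1 isomerizes its isoprenoid unit, and Fdps joins such units to farnesyl diphosphate. Fdft1, squalene synthase, commits farnesyl diphosphate to sterols, Sqle oxidizes squalene, Cyp51 demethylates lanosterol and Dhcr7 carries out the last reduction to cholesterol. Insig1 encodes the protein that holds the SREBP complex in the endoplasmic reticulum, and the gene is itself a target of SREBP.

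RefSeq promoters of build GRCr8 were matched for 6 of the 8 genes, Hmgcs1, Idi1, Fdps, Cyp51, Dhcr7 and Insig1. The 250 bases before the start of 3 of them are shown, because Hmgcs1 had the largest difference between injured and Naïve rats, Insig1 was called in every comparison of a drug group with TBI, and Fdps was measured by a pair of probes. Capitals mark CCAAT or its reverse complement ATTGG, and the palindrome CACGTG.
Hmgcs1, chr2:53382054-53382303, plus strand: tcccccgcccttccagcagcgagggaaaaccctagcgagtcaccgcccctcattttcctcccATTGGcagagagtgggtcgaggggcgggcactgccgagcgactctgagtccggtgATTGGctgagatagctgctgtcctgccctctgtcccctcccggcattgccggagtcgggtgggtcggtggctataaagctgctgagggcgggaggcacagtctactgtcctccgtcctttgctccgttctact
Fdps, chr2:176804817-176805066, minus strand: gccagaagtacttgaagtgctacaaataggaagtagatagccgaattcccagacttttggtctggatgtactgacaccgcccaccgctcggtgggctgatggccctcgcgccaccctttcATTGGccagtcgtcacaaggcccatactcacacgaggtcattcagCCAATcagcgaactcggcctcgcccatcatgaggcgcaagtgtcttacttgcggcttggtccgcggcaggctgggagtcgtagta
Insig1, chr4:8057770-8058019, minus strand: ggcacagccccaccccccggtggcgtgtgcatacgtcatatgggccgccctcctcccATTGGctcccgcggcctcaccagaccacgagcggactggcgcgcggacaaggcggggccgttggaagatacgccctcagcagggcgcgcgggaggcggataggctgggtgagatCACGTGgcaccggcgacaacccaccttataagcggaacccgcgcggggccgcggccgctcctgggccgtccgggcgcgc

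Over the full window, from 250 bases before the start to 50 after it, CCAAT on either strand was present in 4 of the 6 promoters (Hmgcs1, Idi1, Fdps and Insig1) and in 37.5% of all 33469 rat promoters. CACGTG was present in 1 of the 6, that of Insig1, and in 6.42% of all promoters. TCACNCNAC, a loose form of the sterol regulatory element, was present on either strand in 0 of the 6 and in 2.48% of all promoters. No match says only that these letters are not in this window, and the 3 patterns do not overlap each other in the promoters shown.

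Each gene had 1 probe except Fdps, which had 2. The Cyp51 probe was printed in 10 spots, and its spots were averaged. All 9 probes were well above background on every array that had a value, 16 of 16 for 8 probes and 15 of 15 for the brighter Fdps probe, whose spot was flagged as an outlier on TBI replicate 3. None was saturated. The 60-base sequences of the Fdps probes are given because both report the same gene and differed in direction between TBI and Naïve.
Fdps brighter probe, chr2:181170192-181170336 of rn4, minus strand: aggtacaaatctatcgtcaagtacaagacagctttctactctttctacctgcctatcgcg
Fdps dimmer probe, chr2:181168650-181168691 of rn4, minus strand: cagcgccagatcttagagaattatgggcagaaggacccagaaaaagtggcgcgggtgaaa

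The first span is longer than the probe, and the second shorter, so the probes do not lie in 1 unbroken stretch of the genome there. The other probes lie in rn4 at chr2:51754514-51754573 (Hmgcs1), chr17:72557223-72557282 (Idi1), chr15:42425389-42425448 (Fdft1), chr7:96111693-96111752 (Sqle), chr4:26771049-26771108 (Cyp51), chr1:204258565-204258624 (Dhcr7) and chr4:2578292-2578348 (Insig1). Exon and intron positions were not analysed here.

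All levels are log2 values of a probe's signal over the 75th percentile of signals above background on the same array, so 0 is the level of that percentile, and levels of different probes are not set against each other. The arrays were scanned on 2 dates. The 8 Naïve, Sham and TBI arrays, with 16282 to 18245 probes above background, share 1 date, and the 8 drug arrays, with 20259 to 24984, the other. Date and treatment therefore cannot be told apart when a drug group is set against TBI, Naïve or Sham, and the place of the genes among all probes is given there. No pair of arrays held the same values, and correlations between arrays ran from 0.9176 to 0.987 across probes. The Sham arrays shared slide 1 with Naïve 1 and 2, the TBI arrays shared slide 2 with Naïve 3, the TBI+PMI arrays shared slide 3 with TBI+JM6 1, and slide 4 held the remaining 4 arrays.

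The first question was whether injury changed these genes. In injured hippocampus 7 of the 8 genes had lower mean levels than in Naïve rats, the exception being Fdps, and all 8 had lower mean levels than in Sham rats. The differences were modest, at most 1.59-fold against Naïve and 1.72-fold against Sham, and none passed the test across all probes. The median difference of the 8 genes was -0.44 on the log2 scale between TBI and Naïve, where the median of all probes was 0.04. Between TBI and Sham it was -0.32, with -0.03 for all probes, and -0.18 without Sham replicate 2. In a bulk sample, fewer cells of a type and less RNA per cell cannot be told apart.

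**Figure D1:**
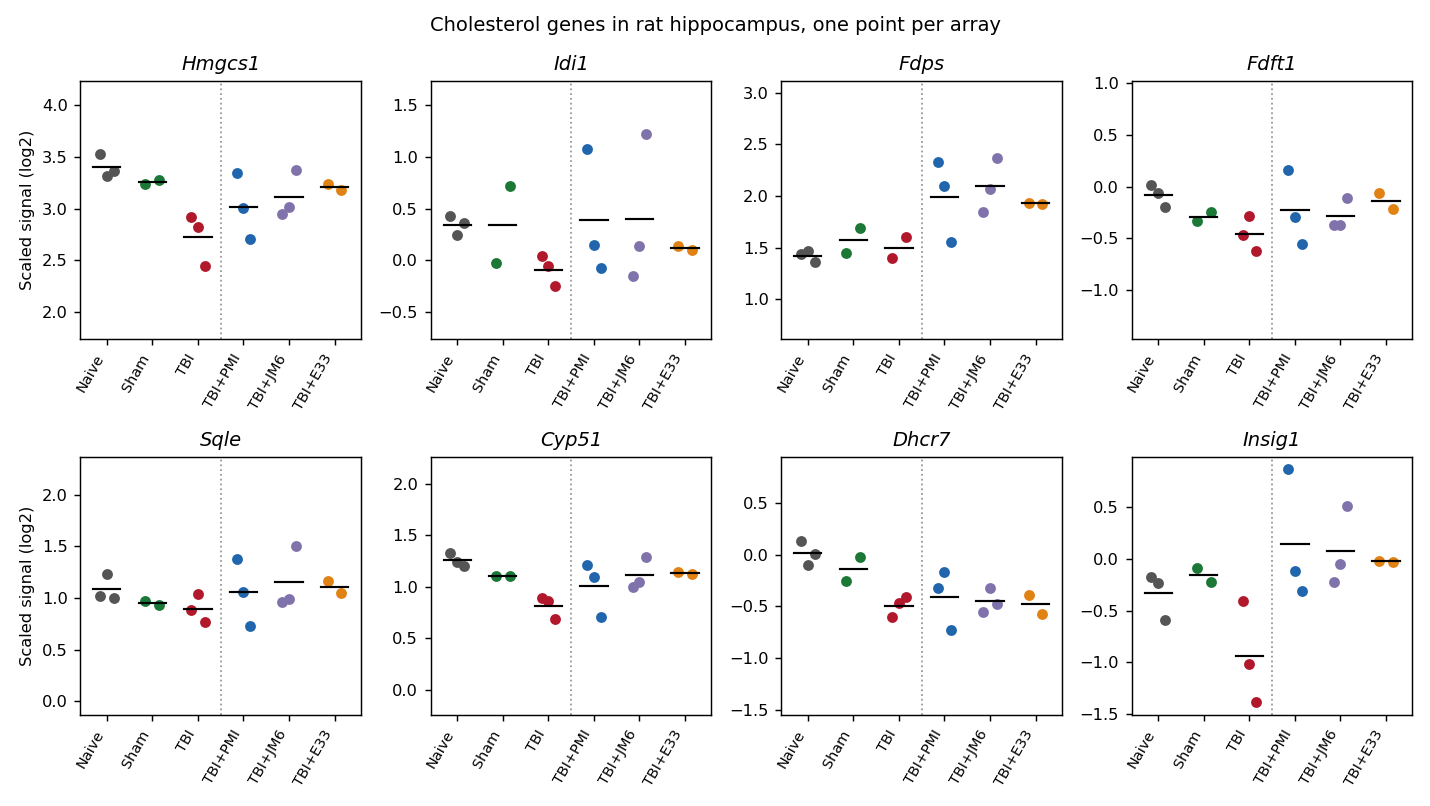
Scaled signal (log2) of each of the 8 genes, with 1 point per array (3 Naïve, 2 Sham, 3 TBI, 3 TBI+PMI, 3 TBI+JM6 and 2 TBI+E33) and a bar at the group mean. The vertical span is 2.5 in every panel, and the dotted line parts the 2 scan dates. Hmgcs1, Cyp51 and Dhcr7 show all 3 TBI points below the Naïve and Sham points.

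Hmgcs1, the entry enzyme, showed the clearest separation. Its levels were 3.52, 3.31 and 3.36 in Naïve, 3.23 and 3.28 in Sham, and 2.91, 2.82 and 2.44 in TBI. The highest TBI array lay below the lowest uninjured one. The TBI mean was 1.59-fold lower than Naïve (difference -0.67 ± 0.19 SE, n = 3 and 3; limma, Benjamini-Hochberg adjusted p = 0.0659) and 1.44-fold lower than Sham (-0.53 ± 0.21, n = 3 and 2; limma adjusted p = 0.14). On slide 2 alone, the TBI arrays lay -0.63 from Naïve 3. Without TBI replicate 1 the difference from Naïve was -0.77 and was called (limma adjusted p = 0.0447). It was not called without any other of the 6 arrays, with values of -0.53 without TBI replicate 3 (limma adjusted p = 0.22) and -0.61 without Naïve replicate 1 (limma adjusted p = 0.202).

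Cyp51, the lanosterol demethylase, was narrow within groups. Its levels were 1.33, 1.24 and 1.21 in Naïve, 1.10 and 1.10 in Sham, and 0.89, 0.86 and 0.69 in TBI. The TBI arrays lay below both uninjured groups without overlap. The difference was -0.45 ± 0.15 SE from Naïve (limma adjusted p = 0.118) and -0.29 ± 0.17 from Sham (limma adjusted p = 0.315). Within slide 2 it was -0.39 from Naïve 3.

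Dhcr7, the terminal reductase, had levels of 0.13, -0.10 and 0.01 in Naïve, -0.26 and -0.02 in Sham, and -0.60, -0.47 and -0.41 in TBI. Again no TBI array reached the uninjured range. The TBI mean differed by -0.51 ± 0.17 SE from Naïve (limma adjusted p = 0.103) and by -0.35 ± 0.19 from Sham (limma adjusted p = 0.254). The value on slide 2 was -0.50.

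Insig1, the sterol-regulated retention protein, varied most within the TBI group. Its levels were -0.18, -0.23 and -0.59 in Naïve, -0.09 and -0.22 in Sham, and -0.41, -1.01 and -1.39 in TBI. TBI replicate 1 lay inside the Naïve range, and the other two lay below every uninjured array. The difference was -0.61 ± 0.32 SE from Naïve (limma adjusted p = 0.304) and -0.78 ± 0.36 from Sham (limma adjusted p = 0.184). On slide 2 alone it was -0.35 from Naïve 3, and without TBI replicate 3 it was -0.38 from Naïve.

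Idi1 and Fdft1 lay in TBI below all Naïve arrays but overlapped with Sham. Idi1 ranged from 0.24 to 0.43 in Naïve and from -0.25 to 0.04 in TBI, while the Sham arrays were at -0.03 and 0.72. Fdft1 ranged from -0.20 to 0.02 in Naïve and from -0.62 to -0.29 in TBI, with Sham at -0.34 and -0.24. The TBI minus Naïve differences were -0.44 ± 0.35 SE for Idi1 and -0.38 ± 0.18 for Fdft1.

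Sqle and Fdps differed least. Sqle ranged from 1.0 to 1.24 in Naïve, 0.93 to 0.97 in Sham and 0.77 to 1.03 in TBI, and its difference from Naïve was -0.19 ± 0.19 SE. The brighter Fdps probe was at 1.44, 1.47 and 1.36 in Naïve, 1.45 and 1.70 in Sham, and 1.40 and 1.60 in the 2 TBI arrays with a value. Its TBI mean, over n = 2, lay 0.08 ± 0.23 SE above Naïve, and the dimmer Fdps probe, measured on all arrays, lay -0.03 ± 0.22 from Naïve. The probes thus differed in sign by less than the error of either.

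**Figure D2:**
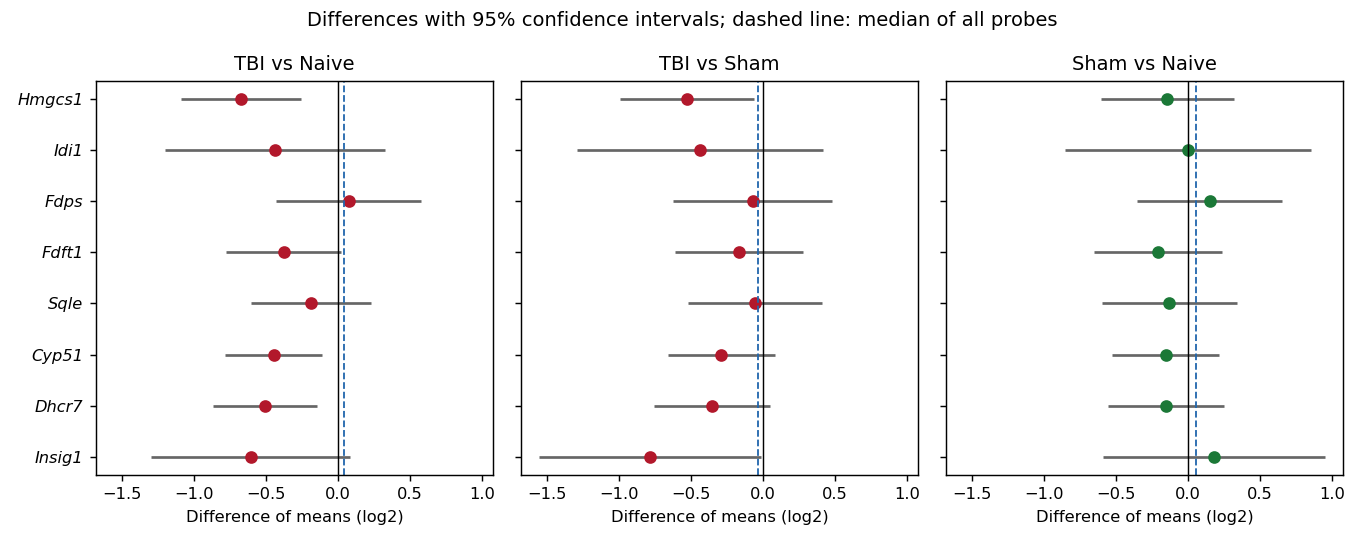
Difference of group means (log2, points) with 95% confidence intervals (lines) from the limma fit over 16 arrays, for TBI against Naïve, TBI against Sham and Sham against Naïve. The dashed line is the median of all probes. The Hmgcs1, Cyp51 and Dhcr7 intervals exclude 0 against Naïve before adjustment, and those of Hmgcs1 and Insig1 against Sham.

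By limma with Benjamini-Hochberg adjustment, 0 of the 8 genes were called between TBI and Naïve, where 4.71% of all tested probes were, and 0 of 8 between TBI and Sham, where 9.41% were. At an unadjusted limma p under 0.05 the counts were 3 (Hmgcs1, Cyp51 and Dhcr7) and 2 (Hmgcs1 and Insig1). Of all tested probes, 4761 of 22809 and 5933 of 22799 passed that threshold. The methods' t-test, at an unadjusted p under 0.05 and over 1.2-fold, passed 5 genes against Naïve (13.9% of all probes) and 1 against Sham (13.5%), and 0 in each after adjustment. Against Naïve 5 of the 7 genes measured on every array of both groups had all TBI arrays lower, which 10.4% of such probes did, and against Sham 4 of 7 did, with 24.3% of such probes. Quantile normalization called Hmgcs1 and Cyp51 lower in TBI than in Naïve (5.55% of all probes called), and so did scaling on the 75th percentile of all probes (8.09%). These calls therefore depended on the scaling. Of the probes called between TBI and Naïve, 63.3% were higher on the scale of the methods and 53.9% after quantile normalization, and between TBI and Sham 31.1% and 46.8% were.

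No difference between Sham and Naïve passed the test in these genes. The median difference was -0.14, with 0.06 for all probes (-0.08 without Sham replicate 1 and -0.09 without Naïve replicate 1), and 0 of 8 were called by limma, 0 at an unadjusted p under 0.05 and 0 by the methods' t-test, while 8.08% of all probes were called. At an unadjusted limma p under 0.05, 5183 of 22784 tested probes passed. Differences of the 8 genes ran from -0.21 to 0.18 on the log2 scale. For 4 of 8 genes, Hmgcs1, Sqle, Fdft1 and Cyp51, both Sham arrays lay below all Naïve arrays, which 13.8% of such probes did. For TBI and Sham, which share no slide, a fit with the slide as a block, bridged by the Naïve arrays, gave a median of -0.28 with 5 of 8 lower. In that fit Hmgcs1 differed by -0.47 and Insig1 by -0.40, and 0 of 8 were called. Markers of several cell types also differed in these comparisons. The 4 tested leukocyte markers (of 5 listed) summed to 0.1065 to 0.1273 in Naïve, 0.2848 to 0.4026 in Sham and 0.5335 to 2.265 in TBI, in units of the 75th percentile. Against Naïve 4 of 4 were called higher in TBI, and 2 after quantile normalization. Cd3e and Itgal were above background on 0 of 3 Naïve arrays. Against Sham 2 of 4, S100a9 and Itgal, were called higher, and 1, Itgal, after quantile normalization, while Cd3e was lower (-0.88, not called). Itgal was above background on 0 of 2 Sham arrays and 2 of 3 TBI arrays. The 8 oligodendrocyte markers summed to 83.69 to 118 in Naïve, 112.8 to 117.7 in Sham and 55.06 to 111.3 in TBI, and 4 of 8 were called lower against Sham and 0 against Naïve. The 4 tested neuronal markers (of 5 listed), all above background on every array, summed to 14.67 to 15.89 in Naïve, 19.34 to 21.19 in Sham and 11.45 to 15.90 in TBI. The TBI sums lay below the Sham sums without overlap, and 1 of the 4, Snap25, was called lower against Sham (-0.68 ± 0.19 SE, limma adjusted p = 0.0412) but not after quantile normalization. The 5 microglial markers summed to 4.682 to 5.037, 5.421 to 8.401 and 6.314 to 8.296 in Naïve, Sham and TBI, and 2 of 5, Tmem119 (-2.17) and P2ry12 (-1.41), were called lower in TBI than in Sham. The 5 endothelial markers summed to 0.9149 to 1.964, 2.209 to 2.494 and 1.133 to 1.683, and 1 of 5, Cldn5 (-1.23), was called lower against Sham, though not after quantile normalization. The 5 astrocyte markers summed to 19.58 to 22.93, 18.94 to 20.91 and 21.58 to 22.71. Against Naïve 1 of these was called higher in TBI, Gfap (2.53 ± 0.32 SE), and 1 lower, Aldh1l1 (-0.80 ± 0.21). The 3 tested choroid plexus markers (of 5) summed to 2.331 to 76.32, 4.867 to 120.7 and 0.1803 to 3.505, with none called. The part of these shifts in the cholesterol gene values was not tested.

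A wider list of 42 other cholesterol genes, of which 39 were tested, was examined beside the 8. Between TBI and Sham 5 of the 39 were called lower and 0 higher, where 9.41% of all probes were called, with 4 of the 5 among the 15 synthesis genes. Among them was Sc5d (under its older name Sc5dl), which desaturates sterols late in the pathway, at -1.97 ± 0.22 SE (limma adjusted p = 0.00347). Mbtps2, a protease that releases SREBP, was above background on 2 of 2 Sham arrays and 0 of 3 TBI arrays. Its tested difference was -1.64 ± 0.47 SE (limma adjusted p = 0.0474), with TBI values below background. When these were raised to the lowest level above background on each array, Mbtps2 was 1.44-fold lower in TBI. That level is the lowest of any probe, so this value is not a strict bound, and it was not tested. The median of the 15 synthesis genes was -0.54, that of the 7 tested uptake genes -0.36 and that of the 11 efflux and turnover genes -0.07, with -0.03 for all probes. Under quantile normalization 3 of the 39 were called lower (7.97% of all probes called), and Mbtps2 was not among them.

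Between TBI and Naïve the same list had 1 gene of 39 called (4.71% of all probes), Soat1, which esterifies cholesterol. It was above background on 2 of 3 TBI arrays and on 0 of 3 Naïve arrays. The tested difference of Soat1 was 1.68 ± 0.38 SE (limma adjusted p = 0.0279). With the Naïve values raised to the lowest level above background, its level was 1.63-fold higher in TBI, which is not a strict bound and was not tested. After quantile normalization Soat1 was not called (limma adjusted p = 0.0636), and 1 other gene was called lower, Abcg4, a sterol exporter, at -0.49 (limma adjusted p = 0.0404). The medians of the 15 synthesis, 7 tested uptake and 11 efflux and turnover genes there were -0.17, -0.03 and -0.26, with 0.04 for all probes. For Sham against Naïve they were 0.29, 0.31 and -0.01, with 0.06 for all probes. Between Sham and Naïve 4 of the 39 were called higher (8.08% of all probes called), among them Sc5d at 2.01 ± 0.22 SE (limma adjusted p = 0.00185). Mbtps2 and Soat1, both above background on 0 of 3 Naïve arrays, were also called (1.74 and 1.60, limma adjusted p = 0.041 and 0.0384). With the Naïve values raised in the same way, they were 1.54-fold and 1.53-fold higher in Sham. After quantile normalization 1 of the 39 was called, Sc5d, where 5.76% of all probes were, and Mbtps2 and Soat1 were not (limma adjusted p = 0.201 and 0.113). Sc5d was thus called in both comparisons that involve the Sham arrays, which both comparisons share. It was also called higher than in TBI in TBI+PMI, TBI+JM6 and TBI+E33 (1.51, 2.44 and 2.08), where 56.7%, 70.1% and 70.3% of all probes were called. These calls held after quantile normalization (0.88, 1.71 and 1.31), where 19.2%, 27.2% and 20.4% were called. Drug and scan date cannot be told apart in them. Srebf2, which encodes SREBP-2, differed between TBI and Naïve by -0.49 ± 0.19 SE and between TBI and Sham by -0.28, and was called in neither.

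The second question was whether a drug given after injury changed these genes. On the scale of the methods all 8 genes had higher means in each drug group than in TBI, with medians of 0.26 for TBI+PMI, 0.34 for TBI+JM6 and 0.32 for TBI+E33. Without TBI+PMI replicate 1 or 3 the TBI+PMI median was 0.11 or 0.42, and without TBI replicate 3 it was 0.15. Without TBI+JM6 replicate 3 the TBI+JM6 median was 0.15. All probes together moved further in the same direction, with medians of 0.79, 0.99 and 1.08. Set against the median of all probes, 7 of 8 genes were lower in TBI+PMI, 7 in TBI+JM6 and 8 in TBI+E33, and the medians of the 8 lay -0.53, -0.65 and -0.76 from it. After quantile normalization these distances were smaller, -0.16, -0.24 and -0.34. The drug groups share the TBI arrays as control and lie on the other scan date, so drug and date cannot be told apart.

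Insig1 had levels of 0.87, -0.12 and -0.31 in TBI+PMI, -0.22, -0.05 and 0.51 in TBI+JM6, and -0.02 and -0.03 in TBI+E33. Every drug array lay above all 3 TBI arrays, but each drug group overlapped with TBI after quantile normalization. The share of all probes separated in this way was not computed. On the scale of the methods 5.66%, 4.19% and 2.73% of all probes were lower in TBI+PMI, TBI+JM6 and TBI+E33 than in TBI. It was called higher in TBI+PMI (1.08 ± 0.32 SE, limma adjusted p = 0.0117), in TBI+JM6 (1.02 ± 0.32, limma adjusted p = 0.0127) and in TBI+E33 (0.92 ± 0.36, limma adjusted p = 0.0351). These rises were 0.29, 0.02 and -0.16 from the median of all probes, and under quantile normalization they were 0.51, 0.29 and 0.16 with none called. No call of Insig1 held without TBI replicate 3, when the differences were 0.86, 0.79 and 0.69 (limma adjusted p = 0.0576, 0.0614 and 0.122). The call was also lost without TBI+PMI replicate 1 (0.72, limma adjusted p = 0.0555), without TBI+JM6 replicate 3 (0.80, limma adjusted p = 0.0614), and, for TBI+E33, without TBI replicate 2 or either TBI+E33 array (0.88, 0.91 and 0.92).

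The brighter Fdps probe was at 2.33, 2.10 and 1.56 in TBI+PMI, 1.85, 2.07 and 2.37 in TBI+JM6, and 1.93 and 1.93 in TBI+E33. It was called higher in TBI+JM6 (0.59 ± 0.23 SE against 2 TBI arrays, limma adjusted p = 0.0367), which was -0.40 from the median of all probes. The dimmer Fdps probe differed there by 0.35 ± 0.22 (limma adjusted p = 0.159), and the mean of both probes, over the arrays that had both, by 0.44 (limma adjusted p = 0.113), so the call rests on 1 probe. It was also lost without TBI replicate 1 or 2 (0.49 and 0.69) and without TBI+JM6 replicate 2 or 3 (0.61 and 0.46).

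Dhcr7 stood at the other end. Its levels were -0.32, -0.17 and -0.73 in TBI+PMI, -0.56, -0.32 and -0.48 in TBI+JM6, and -0.39 and -0.57 in TBI+E33, within 0.09 of TBI in each group mean. Relative to all probes these were -0.70, -0.95 and -1.06. Differences as low were found in 8.82%, 5.04% and 2.91% of all probes. Under quantile normalization Dhcr7 was called lower in all 3 drug groups, by -0.49, -0.68 and -0.76 (limma adjusted p = 0.0447, 0.00829 and 0.0115). Fdft1 was called lower in TBI+JM6 as well, by -0.55 (limma adjusted p = 0.0174).

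**Figure D3:**
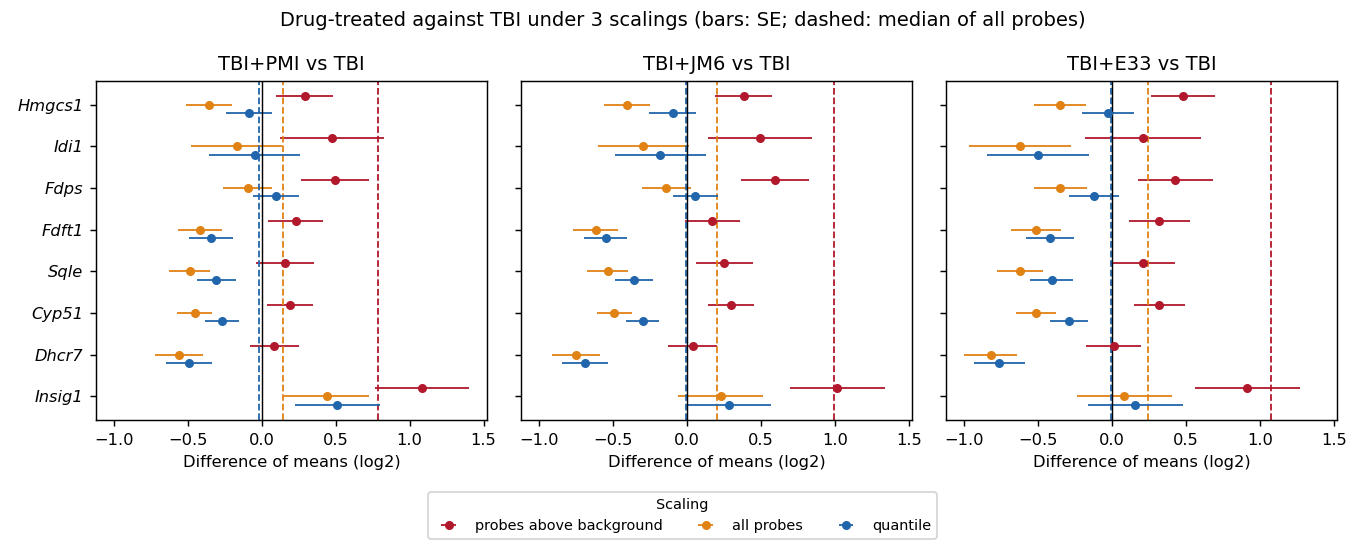
Difference between each drug group and TBI (log2) for the 8 genes, with bars of 1 SE, under scaling on the 75th percentile of probes above background, on that of all probes, and by quantile normalization. Dashed lines are the medians of all probes under each scaling. Most points change sign with the scaling while most stay left of their own dashed line, and Insig1 stays right of 0 in all panels.

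On the scale of the methods 1 of 8 genes was called in TBI+PMI, 2 in TBI+JM6 and 1 in TBI+E33, all higher, where 56.7%, 70.1% and 70.3% of all probes were called and 99.9%, 99.8% and 99.9% of those calls were higher. After quantile normalization 1, 2 and 1 were called, all lower, where 19.2%, 27.2% and 20.4% of all probes were called and 52%, 51% and 51% of the calls were higher. When all probes entered the 75th percentile, 4 genes, Fdft1, Sqle, Cyp51 and Dhcr7, were called lower in each drug group, where 35.8%, 43.8% and 40.4% of all probes were called and 66.5%, 66.6% and 70% of the calls were higher. The sign of most drug differences thus changed with the scaling. Insig1 was higher than in TBI under each of these 3 scalings, and Fdps after quantile normalization in TBI+PMI and TBI+JM6 (0.10 and 0.06, not called), while most of the 8 genes lay below the median of all probes under each of the 3, with 6, 6 and 7 of 8 after quantile normalization. Of the 39 other cholesterol genes, 18, 23 and 21 were called higher on the scale of the methods and 4, 4 and 3 after quantile normalization, when 2, 3 and 3 were called lower.

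Hmgcs1 levels in the drug groups were 3.35, 3.0 and 2.70 in TBI+PMI, 2.95, 3.02 and 3.38 in TBI+JM6, and 3.24 and 3.18 in TBI+E33. The TBI+JM6 and TBI+E33 arrays lay above the TBI arrays, and TBI+PMI overlapped with them. Each drug group overlapped with TBI after quantile normalization. The differences from TBI were 0.29 ± 0.19 SE, 0.39 ± 0.19 and 0.48 ± 0.21, none called (limma adjusted p = 0.206, 0.0875 and 0.0602). After quantile normalization they were -0.08, -0.09 and -0.02.

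Comparisons among the drug groups lie within 1 scan date. No gene was called between TBI+JM6 and TBI+PMI (0 of 8, with 0.0131% of all probes called), between TBI+JM6 and TBI+E33 (0 of 8, 0.0175%) or between TBI+PMI and TBI+E33 (0 of 8, 0.11%). At an unadjusted limma p under 0.05 the counts were 0, 0 and 0, as they were for the methods' t-test. Of all tested probes, 2018 of 22827, 642 of 22824 and 3421 of 22824 passed that limma threshold. The 24 differences ran from -0.19 to 0.28, and their 95% intervals from -0.75 to 1.14. A difference of over 2-fold is excluded only where an interval ends before 1, so the intervals of Idi1 against TBI+E33, up to 1.14 and 1.12, do not exclude it. JM6, PMI-006 and estradiol were given at different doses, so no dose-matched comparison was made. On slide 3, TBI+JM6 1 lay below the mean of the TBI+PMI arrays in all 8 genes, from -0.53 for Idi1 to -0.00 for Cyp51, and on slide 4 the differences between TBI+JM6 and TBI+E33 ran from -0.10 for Fdft1 to 0.56 for Idi1.

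A shared pattern lay within groups. Arrays of 1 group that were high in one of these genes tended to be high in the others. In TBI+PMI, replicate 1 was the highest in 7 of 8 genes and replicate 3 the lowest in 8 of 8. In TBI+JM6, replicate 3 was the highest in 7 and replicate 1 the lowest in 7. TBI replicate 3 was the lowest of its group in 6 of the 7 genes for which it had a value. TBI+E33 replicate 1 was the higher of its group in 8, but lay only 0.0017 (Fdps) to 0.0923 (Dhcr7) above the group mean. The share of all probes with such ranks was not computed. The median of all probes deviated from the group mean by -0.19 on TBI+PMI 3, 0.19 on TBI+JM6 3 and -0.16 on TBI+JM6 1. It deviated by -0.08 on TBI 3, 0.06 on TBI+PMI 1 and -0.06 on TBI+E33 1. After quantile normalization TBI+JM6 1 had 3 of 8 genes above the group mean and TBI+JM6 3 had 6. TBI+PMI 1 and TBI+E33 1 had 8, TBI+PMI 3 had 0 and TBI 3 had 1.

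Idi1 and Insig1 carried the widest swings. Idi1 was at 1.08, 0.15 and -0.08 in TBI+PMI and at -0.15, 0.14 and 1.22 in TBI+JM6. Within these groups the highest and lowest Idi1 arrays were thus over 1 log2 unit apart, more than any difference of group means for this gene.

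**Figure D4:**
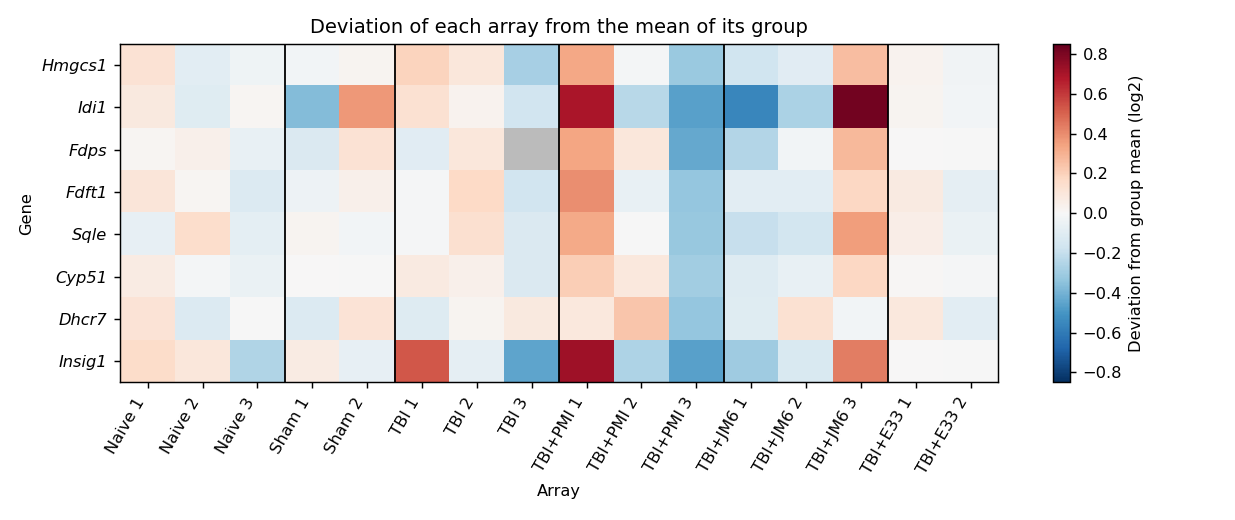
Deviation of each array from the mean of its group (log2, colour) for the 8 genes (rows) on 16 arrays (columns), with black lines between groups and grey for the missing Fdps value. TBI+PMI 1 and TBI+JM6 3 are red and TBI+PMI 3 blue in most rows.

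Over the 16 arrays, the deviations from the group means had a median Pearson r of 0.80 over the 28 pairs of genes (0.07 to 0.94), and 23 pairs were above 0.5. The mean r of the pairs was 0.712, where the mean over all pairs of tested probes was 0.177. The values share the array's scaling and slide, and quantile normalization gave a mean r of 0.52 against 0.012 for all probes. Without TBI+PMI 1 and TBI+PMI 3, the arrays farthest from their group mean, the median r over 14 arrays was 0.67, and 0.39 after quantile normalization, so part of the relation rests on those arrays. Hmgcs1 and Cyp51 were the closest pair (r = 0.935), and Insig1 and Dhcr7 the least alike (r = 0.0689).

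The median of all probes deviated by 0.06 on TBI+PMI 1, -0.19 on TBI+PMI 3 and 0.19 on TBI+JM6 3, while the mean of the 8 genes deviated by 0.39, -0.37 and 0.31. After quantile normalization these means were 0.32, -0.20 and 0.12. TBI+PMI 1 also held the highest choroid plexus marker sum, 149 against 7.52 and 0.249 on the other TBI+PMI arrays, and its part in the pattern was not tested. The sums were 1.76, 0.511 and 0.381 in TBI+JM6, with the lowest on TBI+JM6 3, where the 8 genes were highest. The oligodendrocyte sums were 114, 109 and 110 in TBI+PMI, 123, 94.7 and 114 in TBI+JM6, and 116 and 142 in TBI+E33. In TBI, the mean of the 8 genes deviated by 0.09, 0.07 and -0.17. The oligodendrocyte sums there were 111, 76.2 and 55.1, and the choroid plexus sums 3.51, 0.466 and 0.18. The part of either marker set in the pattern was not tested.

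The genes outside the 8 whose levels were most like their mean were found over all 16 arrays after the mean of each scan date was removed. Among the closest were Stard4, which carries cholesterol between membranes, with r = 0.92, Apln, which encodes the peptide apelin, with 0.92, Vegfa, a vascular growth factor, with 0.90, and Slc25a36, a mitochondrial nucleotide carrier, with 0.89. Stard4 was on the list of uptake genes, and the other genes named were not on any cholesterol list. Srebf2 was also highest on TBI+PMI 1 and TBI+JM6 3 within their groups. Its levels were 2.40, 2.23 and 2.08 in TBI+PMI and 2.18, 2.31 and 2.55 in TBI+JM6. The median of all probes deviated there by 0.06, 0.12 and -0.19 in TBI+PMI and by -0.16, -0.03 and 0.19 in TBI+JM6. Whether Srebf2 moved more than all probes was not tested.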

How the data were processed

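Single-colour arrays of 16 rat hippocampi were used. Per the file headers, the authors' deposited spot intensity came from Agilent Feature Extraction 9.5.3.1 (background-subtracted, not normalized between arrays). The authors' deposited matrix holds a ratio per probe on a linear scale, used only as an alternative. Groups came from the sample labels.

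Intensities of 42877 non-control spots were averaged to 30367 probes after outlier spots were left out, divided by the array's 75th percentile of probes above background and taken as log2, as the methods state. Probes above background on all replicates of at least 1 group were tested (22827) with limma 3.58.1 in R 4.3.3, in 1 fit over all 16 arrays (10 residual degrees of freedom), two-sided, with Benjamini-Hochberg adjustment over all tested probes and a threshold of 0.05. The brightest probe stood for a gene. Named genes were the 8 genes, Srebf2, up to 3 other cholesterol genes called per direction in a comparison with injured or uninjured rats, and the 5 genes most like the mean of the 8; some genes that this rule names are not reported here. The genes, lists and tests were chosen with earlier results of these data known. Alternatives were other scalings, background corrections and filters, the authors' matrix, the methods' t-test, blocks for slide and replicate number, and leaving out arrays. The fit was tested on simulated data. Arrays give no counts, and their number limits the precision. Figures were drawn with matplotlib 3.10.9.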

Additional observations from a re-analysis of the deposited data

How the results depend on the processing

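The scaling decided the drug comparisons. The 2, 1 and 1 of the 8 genes called higher in TBI+JM6, TBI+PMI and TBI+E33 than in TBI turned to 4, 4 and 4 called lower with the 75th percentile over all probes, to 2, 1 and 1 lower with quantile normalization and to 2, 1 and 1 lower in the authors' matrix. The cause was not tested. The methods' t-test after adjustment called 0, 0 and 0, and limma on the compared groups alone 1, 0 and 0. TBI+JM6 had 1 call with normexp background correction, with the filter for probes above background on all arrays (which drops the brighter Fdps probe), with probes of a gene averaged and with the dimmer Fdps probe, an alternative chosen after seeing the data. TBI+E33 had 2 calls with the slide as a random block (consensus correlation -0.0871). Between TBI and Naïve 2 genes were called lower with the 75th percentile over all probes, with quantile normalization and in the authors' matrix, and 1 with the slide as a random block and with the filter for all arrays. Leaving out each array in turn gave 0 to 1 calls between TBI and Naïve, 0 to 2 in each of the 3 comparisons of a drug group with TBI, and 0 in the other 5 comparisons, which also had 0 under every other alternative run. Of 36 same-numbered pairs, 3 had correlated deviations above 0.1 (-0.185 to 0.183). Pairs with different numbers were not set beside them, so this cannot decide whether replicate numbers pair the samples. The replicate block gave 0 calls for TBI+E33 against TBI (Insig1 0.82, limma adjusted p = 0.0559) and changed no other count. A fixed slide block could not be fitted for a drug group against TBI.

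Of 364 values of single genes under an alternative, 305 kept their direction and side of the threshold, 34 were no longer called, 9 became called and 16 changed sign. Sqle between TBI and Sham was 0.0128 with the 75th percentile over all probes, 0.023 in the authors' matrix and 0.0661 with the slide as a fixed block, and ran from -0.1259 to 0.0056 without each array. Fdft1 between TBI and Sham was 0.0961 with normexp and 0.005 with the slide block. Fdps between TBI and Sham was 0.025 with the slide block and ran from -0.1956 to 0.0497 without each array. Fdps between TBI and Naïve was -0.029 with the 75th percentile over all probes, -0.0038 with quantile normalization, -0.17 with normexp, -0.0286 in the authors' matrix and -0.0329 with the dimmer probe, and ran from -0.0243 to 0.1746 without each array. Fdps between TBI+JM6 and TBI was -0.14 with the 75th percentile over all probes. With 2 or 3 arrays a group, the differences of the 8 genes between TBI and the uninjured groups had standard errors of 0.15 to 0.39. With 1 Sham or TBI+E33 array left out, the fit took the spread of the lone remaining array from the other groups.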
